A study of Mus musculus with 30 samples.

Results

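The Dlk1-Dio3 locus on mouse chromosome 12 carries one of the largest groups of miRNA genes of the mouse genome, and 41 of them had a probe set of their own on the mRNA arrays of this study. The genes were taken as every gene of the miRNA type whose hairpin is placed on the plus strand of that locus in the authors' miRNA tables, between Mir673 and Mir369. They are 41 of 20842 named genes and are set beside 280 other miRNA genes. The miRNA arrays list 56 hairpins in a window of the locus that reaches somewhat beyond Mir673 and Mir369. Hairpins with no gene of their own on the mRNA arrays are not described. All 41 genes had 2 mature miRNAs on the miRNA arrays, 82 in all.

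Mutant embryos carried Mef2c-AHF-Cre/+ with Dgcr8 f/f. Wild-type embryos were Dgcr8 f/+, so that the controls had 1 floxed allele, and their label names no Cre. An enhancer of Mef2c drives the Cre in cells of the anterior second heart field and in those derived from them, and the other cells of the dissected tissue keep Dgcr8. Embryos were at day 9.5 with 19 to 21 somite pairs, and each array held a pool of embryos of 1 genotype from at least 5 litters. The tissues were outflow tract dissected together with right ventricle (OFT-RV), which belongs to the heart tube, and the anterior second heart field (aSHF), the progenitor tissue behind it. Each tissue had 4 mutant and 4 wild-type mRNA arrays. On miRNA arrays there were 3 mutant and 3 wild-type OFT-RV pools, and 4 mutant and 4 wild-type aSHF pools.

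Dgcr8 is the RNA-binding partner of the nuclease Drosha. Together they form the Microprocessor, which cuts the hairpin of a miRNA out of its long primary transcript in the nucleus. Dicer then trims the hairpin to the mature miRNA, which is loaded into an Argonaute protein. The Dlk1-Dio3 locus is imprinted: the protein-coding genes Dlk1, Rtl1 and Dio3 are expressed from the paternal chromosome, and the noncoding RNAs Meg3, Rian and Mirg, with the miRNAs, from the maternal one. Several of its miRNAs lie opposite Rtl1, are fully complementary to its transcript and are known to direct its cleavage. The mRNA arrays measure longer RNA. Where the probes lie in each hairpin or its flanks is not stated in the sources, so the values below are called miRNA gene values, and primary transcript and hairpin cannot be told apart in them.

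Mature miRNAs of the 5 genes with the largest rise in each tissue are shown, together with miR-434-3p, from a gene called in aSHF alone whose mature miRNA was lower in OFT-RV. Capitals mark the seed, bases 2 to 8, which pairs with target RNAs. The sequences are from RefSeq (GRCm38.p6), which held 78 of the 82 mature miRNAs and the hairpins of 40 of the 41 genes, all but Mir666. The coordinates of the 41 hairpins in the authors' tables equal those of that build.
miR-136-5p: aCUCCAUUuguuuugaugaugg
miR-376a-3p: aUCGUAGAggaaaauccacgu
miR-376b-3p: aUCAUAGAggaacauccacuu
miR-369-3p: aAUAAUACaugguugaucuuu
miR-300-3p: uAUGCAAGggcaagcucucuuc
miR-382-5p: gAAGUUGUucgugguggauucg
miR-127-3p: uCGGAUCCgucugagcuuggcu
miR-434-3p: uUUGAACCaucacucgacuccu

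The 78 mature sequences hold 76 different seeds, and 2 seeds are shared by a pair of genes each. One is common to Mir411 and Mir379, neighbours at the upstream end of the large cluster. The other is common to Mir376b and Mir376c. Mature miRNAs without a RefSeq sequence were not compared, so other shared seeds are possible. The 2 pairs are shown so that genes with a common seed can be followed below.
miR-411-3p: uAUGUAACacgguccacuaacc
miR-379-3p: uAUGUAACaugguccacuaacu
miR-376b-5p: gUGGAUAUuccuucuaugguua
miR-376c-5p: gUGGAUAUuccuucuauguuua

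Targeting was read first. Dgcr8 averaged 7.70 ± 0.07 in mutant OFT-RV and 8.11 ± 0.11 in wild-type OFT-RV (log2 value, SD, n = 4 each), and fell by 0.41 on the log2 scale (limma, Benjamini-Hochberg adjusted p = 0.00753). In aSHF it averaged 10.22 ± 0.05 in mutants and 10.34 ± 0.06 in wild-type, a difference of -0.12 that did not pass (limma, adjusted p = 0.978). Whether its probes lie in the deleted part is not stated in the sources, so the aSHF value checks the label only weakly. Of 16 measured genes of the miRNA pathway, among them Drosha, Dicer1 and the Argonautes, 1 changed in OFT-RV (Dgcr8) and 0 in aSHF by limma, with 3 in OFT-RV and 1 in aSHF at an unadjusted p under 0.05. Markers of second heart field progenitors lay above the array median for 6 of 7 genes in OFT-RV and for 7 of 7 in aSHF. Cardiomyocyte markers did so for 7 of 7 in both, and endothelial ones for 5 of 5 in both. Neural markers did for 3 of 6 in OFT-RV and 6 of 6 in aSHF, and neural crest ones for 2 of 5 and 4 of 5. For pharyngeal endoderm it was 1 of 5 in OFT-RV and 5 of 5 in aSHF, and for smooth muscle 4 of 4 and 3 of 4. The share of each cell type was not tested. Over 8 marker lists of resident and other cell types, 45 genes in all, 0 passed in either tissue by limma, with 1 in OFT-RV and 4 in aSHF at an unadjusted p under 0.05. The 6 primitive erythroid markers were all slightly higher in mutants, with a median change of 0.07 in OFT-RV and 0.14 in aSHF. Their mean level was 10.15 to 10.42 on mutant and 10.05 to 10.28 on wild-type OFT-RV arrays, and 10.76 to 11.06 on mutant and 10.51 to 10.89 on wild-type aSHF arrays. Other lists were uniform in direction too. Pharyngeal endoderm markers were all lower in mutant OFT-RV, with a median of -0.10. Endothelial markers were all lower in mutant aSHF (median -0.03), and smooth muscle markers all higher in mutant OFT-RV (median 0.05). The part of blood cells or other cell types in the changes below was not tested. In pools of whole tissue, fewer cells of a type and less RNA per cell cannot be told apart.

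In OFT-RV, 23 of the 41 miRNA genes were higher in mutants and 0 were lower (limma, adjusted p under 0.05 over all genes). At an unadjusted p under 0.05, 31 were higher and 0 lower, against 5.83% of all genes in either direction and 82 of the other 280 miRNA genes. Among all 20842 genes 0.432% were called higher, and among the other 280 miRNA genes 52 were. The median change of the 41 genes was 0.64 on the log2 scale, beside 0.03 for the other miRNA genes and -0.01 for all genes. For 28 of the 41 every mutant array lay above every wild-type array, against 1.81% of all genes. In aSHF, 11 of the 41 were higher and 0 lower by limma, against 0.178% of all genes and 25 of the other 280 miRNA genes. At an unadjusted p under 0.05, 24 were higher and 1 lower (Mir539), against 2.66% of all genes in either direction and 60 of the other miRNA genes. The median was 0.38, beside 0.06 for the other miRNA genes and 0.01 for all genes. Mutant and wild-type arrays were fully apart for 19 of the 41, against 1.07% of all genes. In both tissues together 10 genes were called, 13 were called in OFT-RV but not in aSHF, 1 in aSHF but not in OFT-RV, and 17 in neither. The OFT-RV count was 19 to 22 with any 1 array left out, and 18 genes passed each time. The aSHF count was less stable, and fell with most of the arrays when each was left out. It was 3 to 7 without wild-type array 1, 3 or 4 or without mutant array 1, 3 or 4. Without wild-type array 2 it was 9, and without mutant array 2 it was 15. The median change over the 41 genes stayed between 0.27 and 0.41 in these aSHF fits. In aSHF 3 genes, Mir127, Mir543 and Mir382, passed each time. None of the called genes changed sign in these fits.

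**Figure D1:**
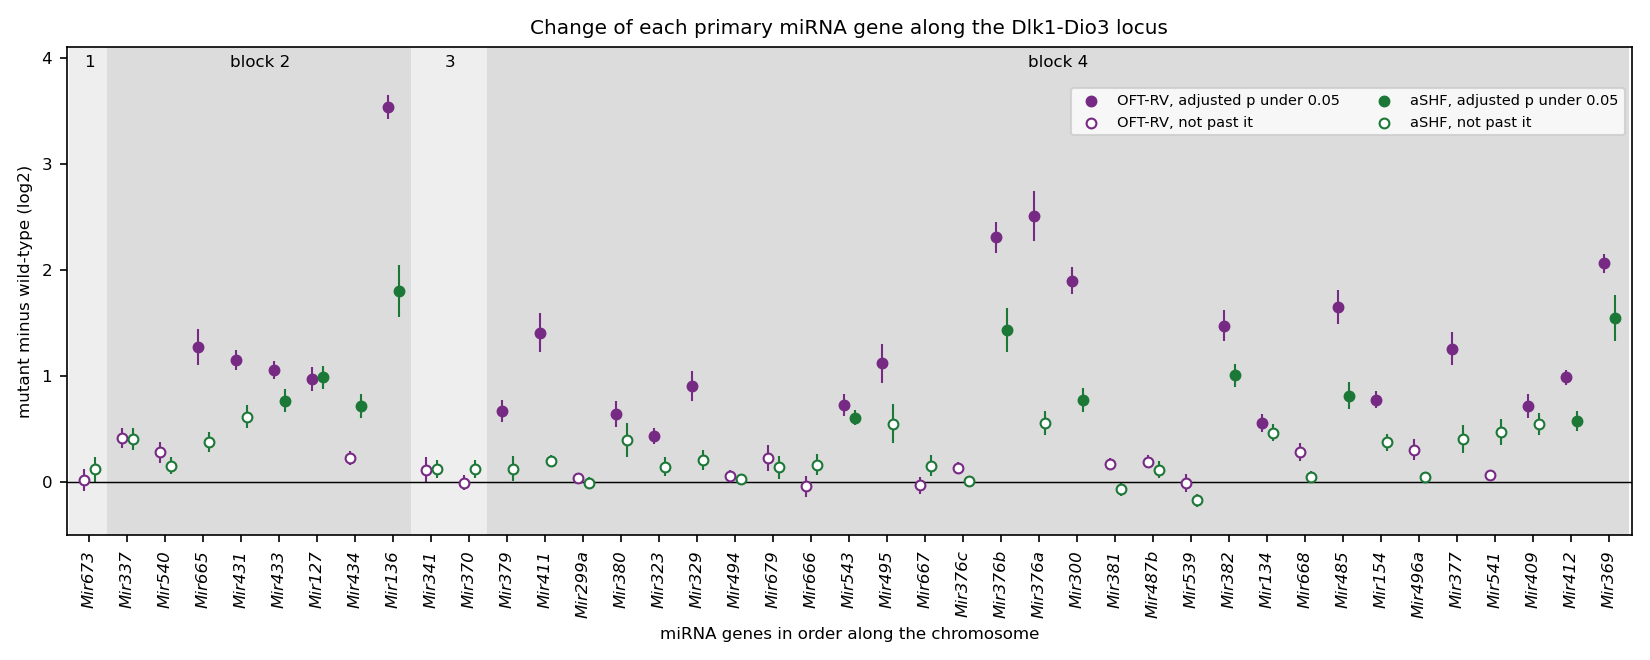
Change of each of the 41 miRNA genes, in order along the chromosome (x axis), as mutant minus wild-type on the log2 scale (y axis) in OFT-RV and aSHF, with the SE as bars, n = 4 arrays per group; filled points passed the adjusted p of 0.05. The highest point is Mir136 in OFT-RV at 3.54, and genes that rose stand beside genes near 0 within the shaded blocks.

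Mir136, the last gene of the cluster opposite Rtl1, rose more than any of the other 40 genes in both tissues. In OFT-RV its log2 value was 8.03, 7.96, 7.54 and 7.52 on the mutant arrays, against 4.37, 4.13, 4.15 and 4.26 on the wild-type arrays. All 4 mutant arrays lay far above the wild-type arrays, with a change of 3.54 ± 0.11 (SE), or 11.6-fold (limma, adjusted p = 4.72e-09). In aSHF the values were 7.37, 6.04, 6.75 and 7.39 in mutants, against 4.96, 5.13, 5.14 and 5.11 in wild-type. The groups did not overlap, although the mutant pools differed among themselves by more than 1 unit. The change was 1.80 ± 0.25 (SE), or 3.48-fold (limma, adjusted p = 0.0172). Without mutant array 3 or 4, or wild-type array 1, 3 or 4, it no longer passed in aSHF. The hairpin lies at chr12:109595327-109595388 on the plus strand (GRCm38.p6), and is shown with its mature arms in capitals because both arms were below background on the miRNA arrays.
Mir136 hairpin: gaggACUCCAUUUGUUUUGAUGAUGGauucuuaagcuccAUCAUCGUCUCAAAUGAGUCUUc

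Its neighbours upstream form, with it, a block of 8 genes within 9600 bases, antisense to Rtl1 by their known arrangement. In that block 5 genes rose in OFT-RV and 4 in aSHF, and the median change was 1.01 in OFT-RV and 0.67 in aSHF. Mir127, whose mature miRNA is known to cut Rtl1 RNA, had 7.24, 6.79, 7.35 and 7.43 on mutant OFT-RV arrays, against 6.19, 6.24, 6.25 and 6.25 on wild-type ones. Mutant aSHF arrays gave 8.32, 8.30, 8.50 and 8.74, against 7.33, 7.47, 7.4 and 7.72 on the wild-type ones. The groups were apart in both tissues and the rise was of nearly the same size, 0.97 ± 0.11 in OFT-RV (limma, adjusted p = 0.000851) and 0.99 ± 0.11 in aSHF (limma, adjusted p = 0.00357). Its difference between the tissues was -0.02 with a 95% interval of ± 0.35 (limma, adjusted p = 0.992).

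Mir434, which lies 727 bases upstream of Mir136, was the 1 gene called in aSHF but not in OFT-RV. In OFT-RV it had 4.53, 4.31, 4.23 and 4.50 in mutants, against 4.11, 4.13, 4.19 and 4.22 in wild-type. In aSHF it had 5.85, 5.41, 5.82 and 6.0 in mutants, against 5.05, 5.2, 4.94 and 5.01 in wild-type. The mutant arrays stood above the wild-type ones in both tissues, by 0.23 ± 0.07 in OFT-RV (limma, adjusted p = 0.427) and by 0.72 ± 0.11 in aSHF (limma, adjusted p = 0.0369). The difference between the tissues, -0.49 with a 95% interval of ± 0.29, did not pass over all genes (limma, adjusted p = 0.53).

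Among the other genes of that block, Mir665 was higher by 1.28 in OFT-RV, where it passed, and by 0.38 in aSHF. Mir431 was higher by 1.15 in OFT-RV, where it passed, and by 0.62 in aSHF. Mir433 rose in both tissues, by 1.06 in OFT-RV and by 0.77 in aSHF. At the upstream end of the block, Mir337 differed by 0.42 in OFT-RV and 0.41 in aSHF and passed in neither. Mir540, close downstream, differed by 0.28 in OFT-RV and 0.15 in aSHF.

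Mir673, Mir341 and Mir370 lie outside the main clusters, and none of the 3 passed in either tissue. Mir673, next to the downstream end of Meg3, differed by 0.02 in OFT-RV and 0.12 in aSHF. Mir341 and Mir370 lie within the span of Rian. Mir341, the gene in the middle of those not called in OFT-RV, had 9.72, 9.53, 10.02 and 10.05 on mutant OFT-RV arrays, against 9.61, 10.02, 9.60 and 9.63 on wild-type ones. The aSHF values were 10.08, 10.28, 10.19 and 10.47 in mutants, against 10.05, 10.30, 10.11 and 10.07 in wild-type. The groups overlapped in both tissues, with differences of 0.12 ± 0.12 in OFT-RV and 0.12 ± 0.08 in aSHF. Mir370 differed by -0.0014 in OFT-RV and 0.12 in aSHF.

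The other 30 genes, Mir379 to Mir369, lie within 34437 bases at the downstream end of the locus. In active neurons, transcription of the cluster is known to be driven by Mef2 factors. In OFT-RV 18 of the 30 rose, with a median change of 0.66 and a range of -0.04 to 2.51. In aSHF 7 of the 30 rose, with a median of 0.29 and a range of -0.17 to 1.55.

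Mir376a and Mir376b, members of a family whose hairpins are known to be edited by adenosine deaminases, showed the largest rises of the cluster in OFT-RV. Mir376a had 6.24, 6.20, 5.66 and 7.16 on mutant OFT-RV arrays, against 3.78, 3.82, 3.65 and 3.97 on wild-type ones. Mutant aSHF arrays gave 5.15, 4.61, 4.97 and 5.23, against 4.44, 4.4, 4.48 and 4.41 on the wild-type ones. No mutant array overlapped a wild-type one, and the change was 2.51 ± 0.23 in OFT-RV (5.70-fold, limma, adjusted p = 0.000133) and 0.56 ± 0.11 in aSHF (limma, adjusted p = 0.194).

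Mir376b, 241 bases upstream of Mir376a, had 6.38, 6.33, 6.14 and 6.93 on mutant OFT-RV arrays, against 3.88, 4.24, 4.28 and 4.14 on wild-type ones. In aSHF it had 6.91, 6.25, 6.18 and 7.27 in mutants, against 5.15, 5.16, 5.31 and 5.24 in wild-type. It rose in both tissues, by 2.31 ± 0.15 in OFT-RV (4.96-fold, limma, adjusted p = 3.01e-06) and by 1.44 ± 0.21 in aSHF (2.71-fold, limma, adjusted p = 0.0209).

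Mir376c, 654 bases further upstream, passed in neither tissue. It differed by 0.14 ± 0.06 in OFT-RV (limma, adjusted p = 0.774) and by 0.01 ± 0.04 in aSHF (limma, adjusted p = 0.987). Its values lay between 3.67 and 3.99 on the OFT-RV arrays and between 4.4 and 4.52 on the aSHF arrays, far below the median of all probe sets (6.16 in OFT-RV and 7.50 in aSHF). The hairpins of Mir376c and Mir376b are identical at 71 of 88 aligned positions (80.7%), the highest identity among the 40 hairpins, and those of Mir376b and Mir376a at 52 of 82 (63.4%). How far their probes cross-hybridise was not tested. The 3 hairpins are printed in their order along the chromosome, with the mature sequences that RefSeq holds in capitals.
Mir376c, chr12:109722718-109722803: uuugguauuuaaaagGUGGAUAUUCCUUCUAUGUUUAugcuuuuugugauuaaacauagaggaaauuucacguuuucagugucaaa
Mir376b, chr12:109723458-109723539: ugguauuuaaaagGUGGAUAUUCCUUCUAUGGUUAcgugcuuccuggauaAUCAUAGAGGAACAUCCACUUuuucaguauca
Mir376a, chr12:109723781-109723848: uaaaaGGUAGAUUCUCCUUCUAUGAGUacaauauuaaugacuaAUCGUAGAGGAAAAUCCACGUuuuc

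Mir300 is the next gene downstream. It had 7.36, 6.97, 6.77 and 7.49 on mutant OFT-RV arrays, against 5.23, 5.18, 5.21 and 5.35 on wild-type ones. The aSHF values were 7.14, 6.77, 7.06 and 7.29 in mutants, against 6.51, 6.06, 6.31 and 6.28 in wild-type. The groups were apart in both tissues, with rises of 1.90 ± 0.13 in OFT-RV (3.73-fold, limma, adjusted p = 7.75e-06) and 0.78 ± 0.11 in aSHF (1.71-fold, limma, adjusted p = 0.0252). Mir381, whose hairpin is identical to that of Mir300 at 73.8% of aligned positions, differed by 0.17 in OFT-RV and -0.06 in aSHF and passed in neither.

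Mir369, the last gene of the locus on the array, had 7.17, 7.12, 6.94 and 7.37 on mutant OFT-RV arrays, against 4.92, 5.11, 5.07 and 5.24 on wild-type ones. Mutant aSHF arrays gave 6.81, 6.44, 6.22 and 7.47, against 5.21, 5.32, 5.08 and 5.14 on the wild-type ones. The rise was 2.06 ± 0.09 in OFT-RV (4.18-fold, limma, adjusted p = 6.59e-08) and 1.55 ± 0.22 in aSHF (2.93-fold, limma, adjusted p = 0.0184), with no overlap in either. Just upstream, Mir412 rose by 0.99 in OFT-RV and by 0.58 in aSHF, where limma gave an adjusted p of 0.0497. Mir409, 52 bases before Mir412, was higher by 0.72 in OFT-RV, where it passed, and by 0.55 in aSHF.

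Mir382 had 8.65, 8.52, 8.89 and 9.03 on mutant OFT-RV arrays, against 7.66, 7.4, 7.20 and 6.93 on wild-type ones. In aSHF it had 8.46, 8.08, 8.17 and 8.53 in mutants, against 7.24, 7.23, 7.53 and 7.19 in wild-type. It rose by 1.48 ± 0.14 in OFT-RV (limma, adjusted p = 0.000207) and by 1.01 ± 0.11 in aSHF (limma, adjusted p = 0.00322), without overlap. The next 3 genes downstream show how uneven close neighbours were. Mir134, known for limiting dendritic spine size through Limk1, was higher by 0.56 in OFT-RV, where it passed, and by 0.47 in aSHF. Mir668, 522 bases on, differed by 0.29 in OFT-RV and 0.05 in aSHF and passed in neither. Mir485, 104 bases after Mir668, rose by 1.65 in OFT-RV and by 0.82 in aSHF.

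**Figure D2:**
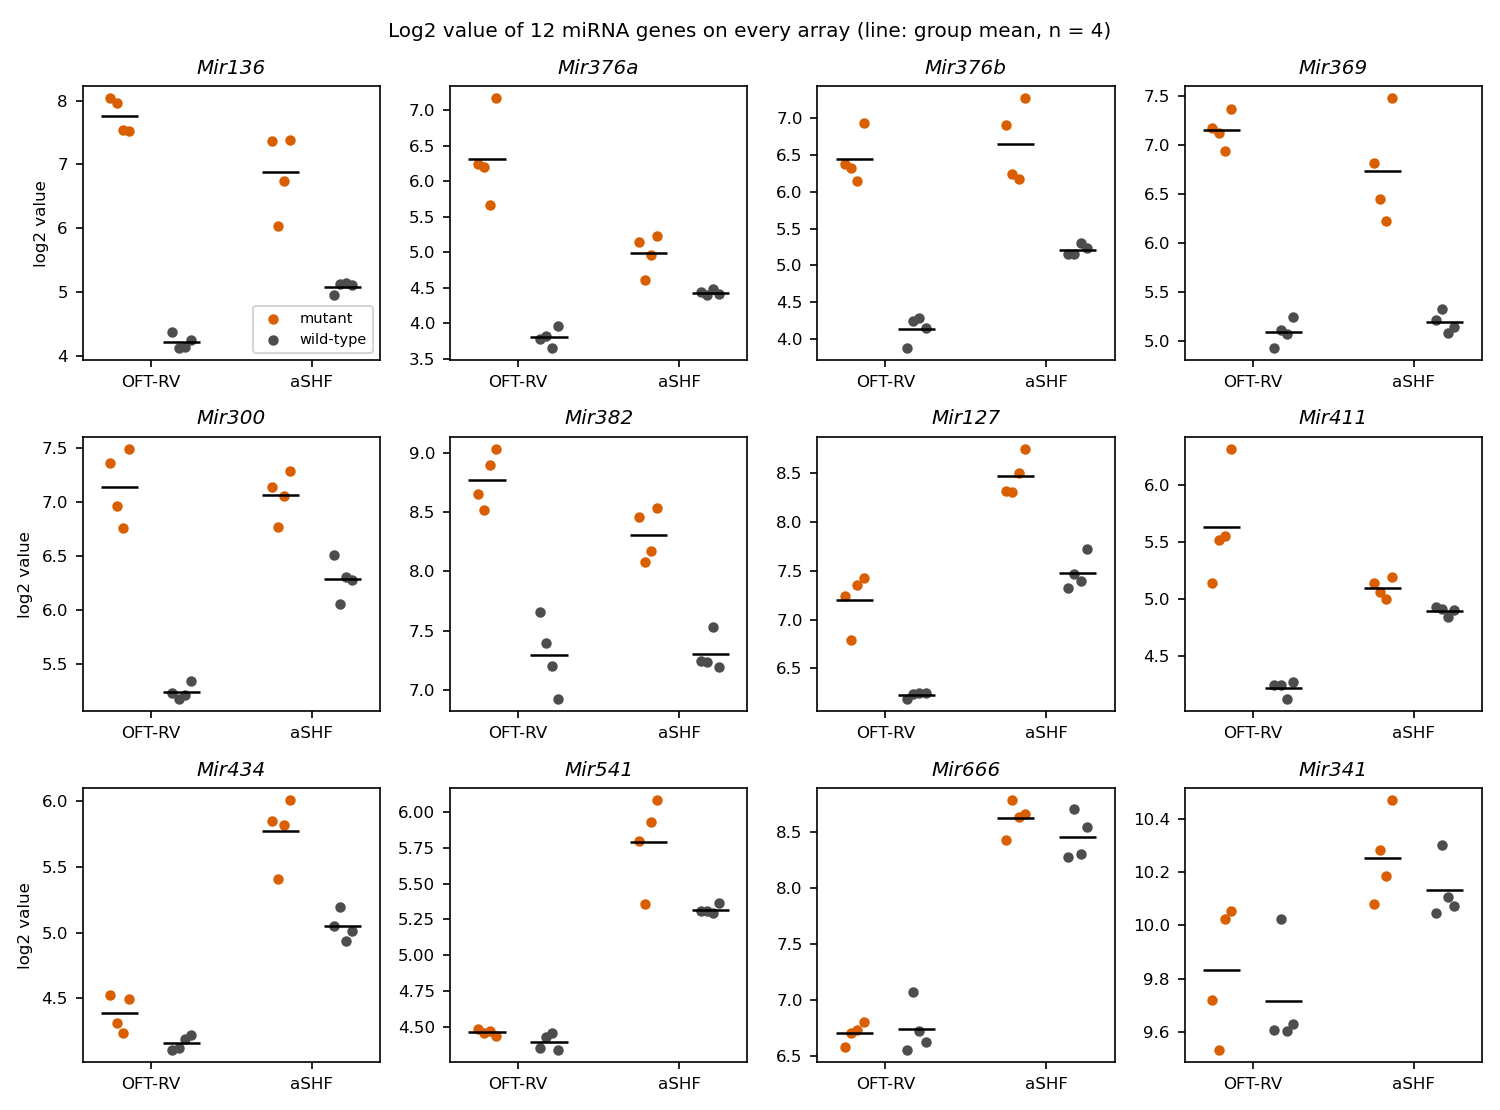
Log2 value (y axis) of 12 miRNA genes on every array, mutant left of wild-type, for OFT-RV and aSHF, with the group mean as a line (n = 4). For Mir136, Mir376b, Mir369, Mir300, Mir382 and Mir127 the groups are apart in both tissues, while for Mir666 and Mir341 they overlap.

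At the upstream end of the cluster Mir411 was higher in OFT-RV, with 5.14, 5.52, 5.55 and 6.31 on mutant arrays, against 4.24, 4.25, 4.12 and 4.28 on wild-type ones. The aSHF values were 5.14, 5.06, 5.0 and 5.2 in mutants, against 4.93, 4.91, 4.84 and 4.90 in wild-type. The arrays did not overlap in either tissue, but the change was 1.41 ± 0.18 in OFT-RV (limma, adjusted p = 0.00258) and 0.21 ± 0.05 in aSHF (limma, adjusted p = 0.757). Mir379, which shares its 3p seed, was higher by 0.67 in OFT-RV, where it passed, and by 0.13 in aSHF. The next gene, Mir299a, differed by 0.04 in OFT-RV and -0.0053 in aSHF.

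Further along, Mir380 was higher by 0.64 in OFT-RV, where it passed, and by 0.40 in aSHF. Mir323 was higher by 0.44 in OFT-RV, where it passed, and by 0.15 in aSHF. Mir329 was higher by 0.91 in OFT-RV, where it passed, and by 0.21 in aSHF. Mir495 was higher by 1.12 in OFT-RV, where it passed, and by 0.55 in aSHF. None of these 4 differed between the tissues by the test of the difference itself. Mir543 rose in both, by 0.73 in OFT-RV and by 0.61 in aSHF.

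A further group of the cluster passed in neither tissue. Mir666, 74 bases upstream of Mir543, had 6.58, 6.70, 6.73 and 6.80 on mutant OFT-RV arrays, against 6.55, 7.07, 6.72 and 6.62 on wild-type ones. Mutant aSHF arrays gave 8.43, 8.78, 8.63 and 8.67, against 8.28, 8.71, 8.31 and 8.55 on the wild-type ones. The groups overlapped in both tissues, with differences of -0.04 ± 0.10 in OFT-RV and 0.17 ± 0.10 in aSHF. Mir667 differed by -0.03 in OFT-RV and 0.16 in aSHF. Mir494 differed by 0.06 in OFT-RV and 0.03 in aSHF. Mir679 differed by 0.23 in OFT-RV and 0.14 in aSHF. Neighbouring genes of this kind stand between genes that rose, so that the run of changes is broken at several points.

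Downstream of Mir381, Mir487b differed by 0.19 in OFT-RV and 0.12 in aSHF. Mir539 differed by -0.0055 in OFT-RV and -0.17 in aSHF, the lowest change of the 41 genes, and did not pass (limma, adjusted p = 0.978 in aSHF). Within the span of Mirg, Mir154 was higher by 0.78 in OFT-RV, where it passed, and by 0.38 in aSHF. Mir377 was higher by 1.26 in OFT-RV, where it passed, and by 0.41 in aSHF. Mir496a, between them, differed by 0.31 in OFT-RV and 0.05 in aSHF.

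Mir541 lies in the same span and was among the 3 genes whose change was smallest in OFT-RV relative to aSHF. It had 4.49, 4.46, 4.47 and 4.44 on mutant OFT-RV arrays, against 4.35, 4.43, 4.46 and 4.34 on wild-type ones. In aSHF it had 5.79, 5.36, 5.93 and 6.08 in mutants, against 5.31, 5.31, 5.30 and 5.37 in wild-type. Its groups overlapped in both tissues, with differences of 0.07 ± 0.05 in OFT-RV and 0.47 ± 0.12 in aSHF, and it passed in neither.

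Change showed no linear trend with position. Pearson's r between change and hairpin start was -0.0037 in OFT-RV and -0.13 in aSHF, and Spearman's rho 0.13 in OFT-RV and 0.06 in aSHF, over 41 genes that share arrays and, in part, transcripts. Among the 30 genes of the large cluster, the median absolute difference in change between the 29 pairs of neighbours was 0.65 in OFT-RV and 0.29 in aSHF. Over all 435 pairs of those genes it was 0.68 in OFT-RV and 0.36 in aSHF. Neighbours were about as far apart in change as any other pair. Properties of the hairpin gave weak relations. For GC content r was -0.28 in OFT-RV and -0.09 in aSHF, over 40 hairpins. For the total folding energy computed by ViennaRNA it was 0.40 in OFT-RV and 0.16 in aSHF. For the folding energy per base, which allows for hairpin length, it was 0.31 in OFT-RV and 0.15 in aSHF. The less stable hairpins thus had somewhat larger changes in OFT-RV, less clearly so per base. For the mean wild-type level r was -0.27 in OFT-RV and -0.18 in aSHF.

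Low signal limits several of these values. Both group means lay under the median of all probe sets for 17 of the 41 genes in OFT-RV and for 24 in aSHF, and among them were 8 of the 23 genes called in OFT-RV and 7 of the 11 called in aSHF. A fold change near the low end of an array is compressed. Among the 17 genes called in neither tissue, 9 were above that median in OFT-RV and 8 in aSHF, so that not every flat gene was a dim one. Mir341, Mir667 and Mir673 are examples.

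The change was larger in OFT-RV than in aSHF for 33 of the 41 genes, with a median difference of 0.24, beside -0.02 over all genes and 0.0020 over the other miRNA genes. The difference itself was tested in a fit of all 16 mRNA arrays. It passed for 4 of the 41 genes, each with the larger change in OFT-RV, against 0.202% of all genes and 30 of the other 280 miRNA genes. They were Mir376a with 1.95 (95% interval ± 0.61, limma, adjusted p = 0.00232), Mir136 with 1.74 (± 0.62, adjusted p = 0.00943), Mir411 with 1.2 (± 0.45, adjusted p = 0.0145) and Mir300 with 1.12 (± 0.40, adjusted p = 0.00899). In aSHF both group means of each of these 4 genes lay under the median of all probe sets (7.50). Mir376a, for example, averaged 4.99 in mutant and 4.43 in wild-type aSHF. In OFT-RV this held for Mir411 alone among them. How far compression at low signal in aSHF enters these differences was not tested. For the other 37 genes a difference was not shown. By their array medians the tissues appear to have been normalized separately, so a difference of scale between them would enter these values. With all arrays quantile-normalized together 5 genes passed, these 4 and Mir412. Across the 41 genes the changes in the tissues had a Pearson's r of 0.82 and a Spearman's rho of 0.77.

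**Figure D3:**
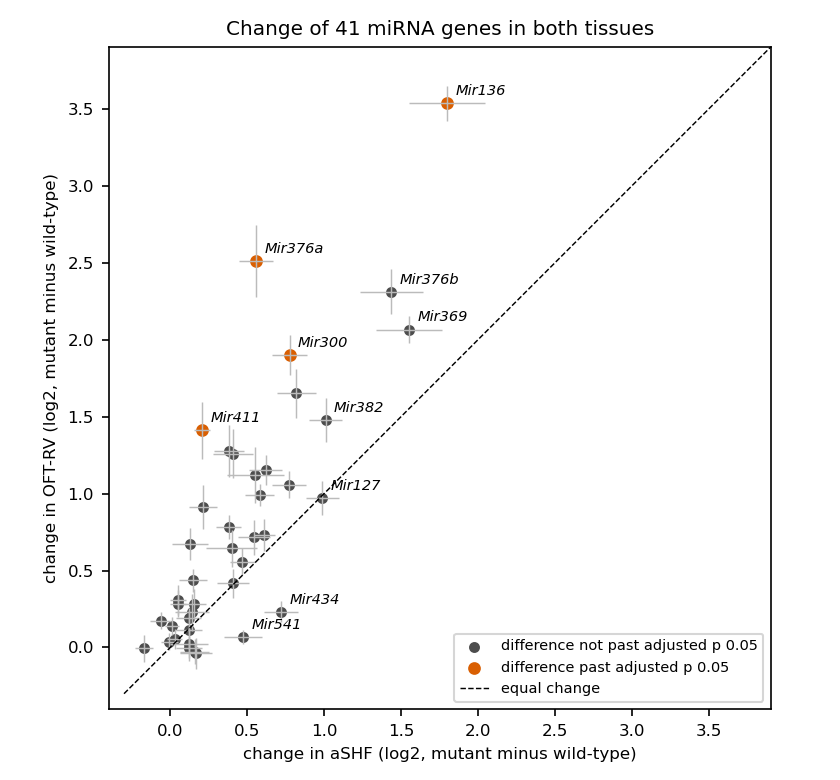
Change in OFT-RV (y axis) against change in aSHF (x axis) of the 41 miRNA genes, both mutant minus wild-type on the log2 scale, with the SE as bars and the line of equal change dashed. Most genes lie above the line, and the 4 coloured ones, Mir376a, Mir136, Mir411 and Mir300, differed between the tissues by 1.12 to 1.95.

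The longer genes of the locus were read beside the miRNA genes. Mirg, the noncoding RNA whose RefSeq span holds 7 of the 41 genes, had 9.21, 8.76, 8.84 and 9.28 on mutant OFT-RV arrays, against 6.30, 6.21, 5.97 and 6.55 on wild-type ones. The aSHF values were 9.31, 9.06, 9.20 and 9.72 in mutants, against 7.92, 7.68, 7.91 and 7.82 in wild-type. It rose by 2.76 ± 0.13 in OFT-RV (6.79-fold, limma, adjusted p = 2.00e-07) and by 1.49 ± 0.12 in aSHF (2.81-fold, limma, adjusted p = 0.00055). The difference of 1.27 between the tissues passed as well (limma, adjusted p = 0.00374).

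Of the 7 miRNA genes within the span of Mirg, 5 were called in OFT-RV and 2 in aSHF. Mirg was also the gene most like the locus in its pattern. Its values, each minus the mean of its tissue, had an r of 0.99 over 16 arrays with the mean of the 24 miRNA genes called in either tissue. Next came 4 miRNA genes outside the locus, Mir301b, Mir181b-1, Mir19b-1 and Mir181a-1, with r of 0.98 to 0.99. These correlations rest on the genotype groups that chose the 24 genes, and are given as a description.

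The other 6 measured genes between Dlk1 and Dio3 passed in neither tissue. Meg3, the maternal noncoding RNA at the upstream end, averaged 10.77 ± 0.11 in mutant and 10.72 ± 0.07 in wild-type OFT-RV, and 10.95 ± 0.15 in mutant and 10.94 ± 0.10 in wild-type aSHF (SD, n = 4 each). Rtl1, the paternal gene opposite the upstream cluster, averaged 6.22 ± 0.07 in mutant and 6.12 ± 0.08 in wild-type OFT-RV, and 7.38 ± 0.17 in mutant and 7.27 ± 0.10 in wild-type aSHF. Its difference was 0.10 ± 0.05 (SE) in OFT-RV (limma, adjusted p = 0.93) and 0.11 ± 0.09 in aSHF (limma, adjusted p = 0.978). Dlk1, which encodes a Notch-like membrane protein, differed by 0.06 in OFT-RV and 0.05 in aSHF. Dio3, the deiodinase that inactivates thyroid hormone, differed by -0.10 in OFT-RV and 0.18 in aSHF. The small nucleolar RNA genes DQ267101 and DQ267102 differed by -0.15 to 0.03. Rian is not analysed here.

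**Figure D4:**
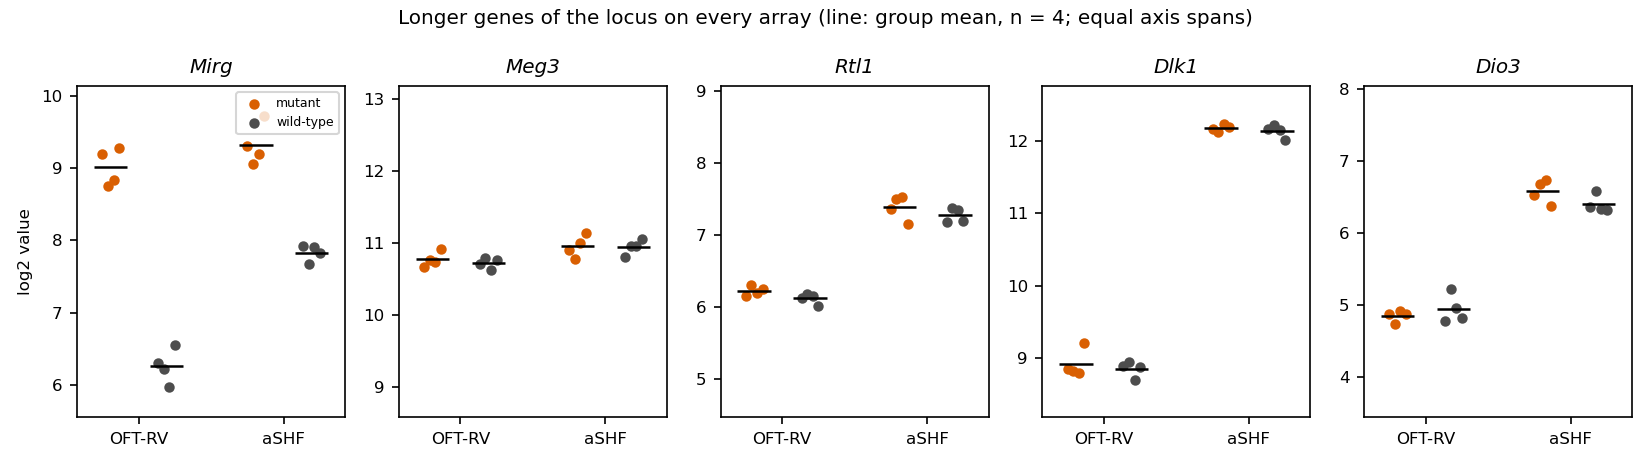
Log2 value (y axis, the same span in every panel) of Mirg, Meg3, Rtl1, Dlk1 and Dio3 on every array, mutant left of wild-type, for OFT-RV and aSHF, with the group mean as a line (n = 4). Mirg is apart between the genotypes in both tissues, by 2.76 and 1.49, and the groups of the other 4 genes lie close together.

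The mature miRNAs of the same hairpins were measured on the miRNA arrays, and most were lower in mutants. The replicate labels do not show whether these arrays held the same pools as the mRNA arrays. In OFT-RV 69 of the 82 were lower in mutants, with a median of -0.21, beside -0.0044 over all 1908 mature miRNAs. In limma 3 of the 82 passed, each lower, against 0.367% of all mature miRNAs, and without wild-type array 1, 2 or 3 or mutant array 2 the count was 1. In aSHF 64 of the 82 were lower, with a median of -0.14, beside -0.0091 over all mature miRNAs, and 0 passed in limma, as did 0% of all mature miRNAs. At an unadjusted p under 0.05 there were 30 of the 82 in OFT-RV, against 9.54% of all mature miRNAs, and 17 in aSHF, against 5.97%. A mature miRNA was taken as above background where its mean over all arrays of the tissue reached the 95th percentile of the background probe sets. That cut was 1.03 in OFT-RV and 2.75 in aSHF, so numbers above background are not comparable between the tissues. Of the 82, those above background were lower for 41 of 45 in OFT-RV, against 264 of 493 of all mature miRNAs above it. In aSHF they were lower for 28 of 28, against 164 of 293.

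The 3 that passed in OFT-RV were miR-543-3p, miR-134-5p and miR-434-3p. On the OFT-RV miRNA arrays miR-543-3p had 1.35, 1.12 and 1.27 in mutants, against 2.95, 3.02 and 3.23 in wild-type, a change of -1.82 ± 0.11 (limma, adjusted p = 0.0014). Its mutant values lay close to the background cut of 1.03. For miR-134-5p the values were 4.87, 4.60 and 4.41 in mutants, against 6.09, 6.04 and 6.36 in wild-type, with a change of -1.53 ± 0.15 (limma, adjusted p = 0.00974). For miR-434-3p they were 5.02, 5.10 and 4.89 in mutants, against 5.69, 5.89 and 6.08 in wild-type, with a change of -0.88 ± 0.12 (limma, adjusted p = 0.0499). The groups did not overlap for any of the 3, and the genes Mir543 and Mir134 had risen in the same tissue while Mir434 had not passed there. They are shown with the seed in capitals, except miR-434-3p, which stands above.
miR-543-3p: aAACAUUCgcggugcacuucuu
miR-134-5p: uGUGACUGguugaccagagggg

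The sizes of both changes were weakly related gene by gene. Taking for each gene its brightest mature miRNA above background, 32 genes could be read in OFT-RV and 26 in aSHF, and the mature miRNA was lower in mutants for each of them. This held for 21 of 21 genes called higher and for 11 of 11 not called in OFT-RV, with a median mature change of -0.84 for those called and -1.17 for those not called. In aSHF it held for 9 of 9 called and 17 of 17 not called, with medians of -0.16 and -0.34. Across genes r between the gene's and the mature miRNA's change was 0.26 in OFT-RV (32 genes) and 0.23 in aSHF (26 genes). The gene with the largest rise had no mature miRNA above background: miR-136-5p averaged 0.87 in mutant and 0.84 in wild-type OFT-RV, and 0.77 in mutant and 0.70 in wild-type aSHF. In contrast miR-127-3p was bright and differed little, with 7.86 in mutant and 7.96 in wild-type OFT-RV, and 8.60 in mutant and 8.69 in wild-type aSHF.

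**Figure D5:**
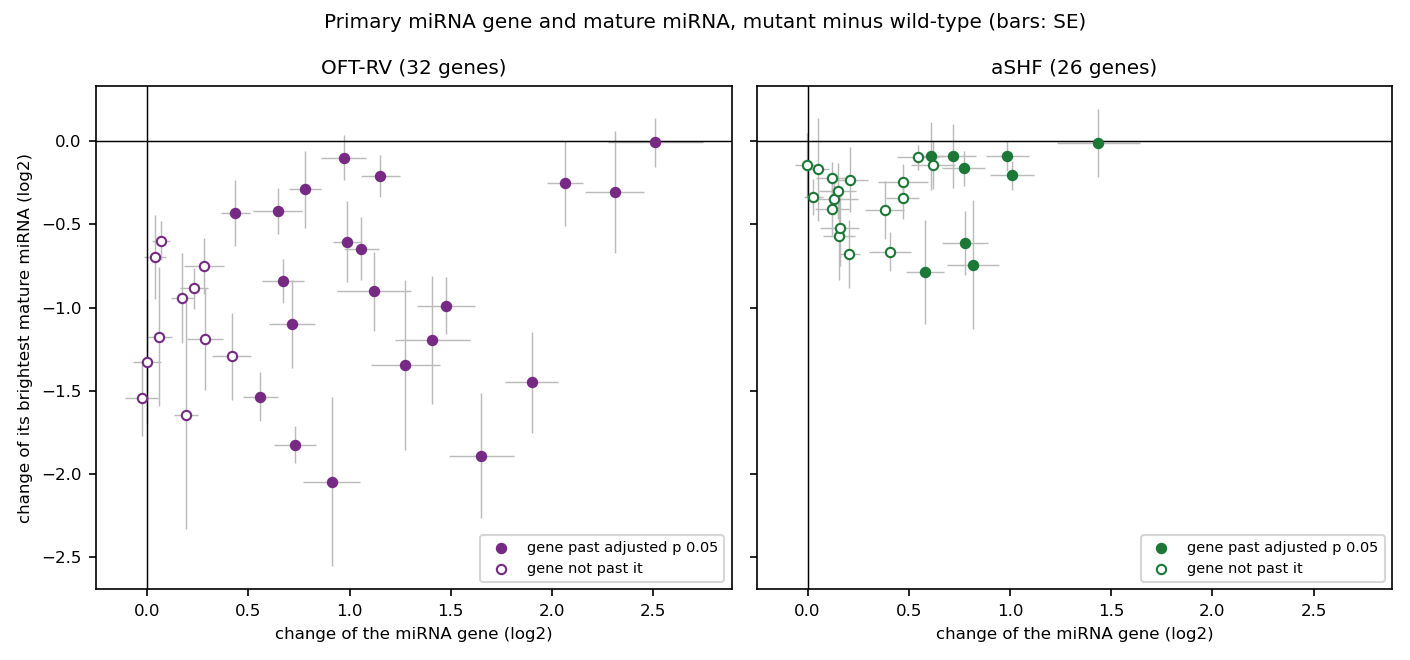
Change of the brightest mature miRNA above background (y axis) against change of its gene (x axis), both mutant minus wild-type on the log2 scale, for 32 genes in OFT-RV (left) and 26 in aSHF (right), with the SE as bars. The points lie at or below 0 on the y axis and mostly above 0 on the x axis (r of 0.26 in OFT-RV and 0.23 in aSHF).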

How the data were processed

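The authors deposited log2 array values. Per the submitters' processing notes they used oligo and RMA, with no versions given. RMA summarises the probes of a set, and small changes near the low end of an array are compressed by it. Array medians matched within a tissue (6.13 to 6.19 in OFT-RV, 7.47 to 7.54 in aSHF) and not between tissues, so levels were not set between tissues. Arrays give no read depth, and their number limits the precision.

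Gene names come from the authors' comparison tables, whose log2 mean and change were matched to a probe set within 1e-06 (20889 of 20889 genes). Left out were 45 genes that share a probe set and 2 second listings. The authors' deposited adjusted p-values enter 1 alternative. A further 30 columns of values match no sample label and were not used.

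Within a tissue the genotypes were fitted with limma 3.58.1 (lmFit, eBayes; R 4.3.3). Benjamini-Hochberg adjustment ran over 20842 genes or 1908 mature miRNAs, and the threshold was an adjusted p of 0.05. The difference between tissues was fitted over 16 arrays in 4 groups. SE is the moderated standard error. The fits were tested on simulated data with known changes. Blocks are runs of genes at most 10000 bases apart. Hairpin energies are from ViennaRNA 2.7.2, and identities from global alignment with Biopython 1.88.

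Values on every array are given for the 5 called genes with the largest rise in each tissue, the 3 with the largest difference between tissues in each direction, and the gene in the middle of those not called in OFT-RV. The sequences shown are of those called, of genes sharing a seed with them, and of mature miRNAs that passed; Mir376c, Mir381, Mir668 and Mir485 were singled out after their values were seen. The 41 genes and the lists were chosen with earlier results of these data known. The labels call the samples biological replicates, each a pool of embryos, so the p-values measure the spread between pools. Alternatives were each array left out, the replicate number as a block, dim probe sets left out, array weights, an intensity trend, array centring, 4 groups in one fit, joint quantile normalization, and the authors' p-values.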

Additional observations from a re-analysis of the deposited data

Results flagged for a closer look

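In 13 of the 164 groups of 4 arrays over the 41 genes, 1 array stood apart by Dixon's test, where chance gives about 1 in 20 groups. Mutant aSHF array 4 was the high one for 5 genes: Mir665 at 8.38 (the others 7.92 to 7.95), Mir485 at 8.68 (8.02 to 8.11), Mir412 at 6.30 (5.91 to 5.97), Mir543 at 6.14 (5.84 to 5.88) and Mir539 at 5.96 (5.74 to 5.74). Without this array 7 genes passed in aSHF. Mutant OFT-RV array 4 was high for Mir495 at 6.09 (5.17 to 5.23).

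Among wild-type aSHF arrays, array 1 was low for Mir136 at 4.96 (5.11 to 5.14) and for Mir323 at 6.08 (6.22 to 6.24), array 3 was high for Mir382 at 7.53 (7.19 to 7.24), and array 4 was high for Mir541 at 5.37 (5.30 to 5.31). Among wild-type OFT-RV arrays, array 2 was high for Mir341 at 10.02 (9.60 to 9.63) and for Mir494 at 7.06 (7.02 to 7.03), and array 1 was low for Mir412 at 4.92 (5.04 to 5.06).

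The change in OFT-RV exceeded that in aSHF by the test of the difference for Mir376a (1.95), Mir136 (1.74), Mir411 (1.2) and Mir300 (1.12), and for the noncoding RNA Mirg (1.27).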

How the results depend on the processing

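The 23 genes called higher in OFT-RV became 15 with dim probe sets left out, where 8 were no longer tested, and 13 by the authors' deposited adjusted p. With 1 array left out the count was 19 to 22. The 11 in aSHF became 4 with dim probe sets left out, where 7 were no longer tested. They became 18 with array weights and 3 by the authors' deposited adjusted p, and were 3 to 15 with 1 array left out. The count of genes whose change was larger in OFT-RV was 4 with any 1 array left out. It was 3 with dim probe sets left out and 6 with array weights. In the other direction, with the larger change in aSHF, Mir434 and Mir541 passed without mutant aSHF array 2, and Mir434 with array weights. Mir541 was itself called in aSHF in both of these settings. The median change was 0.55 to 0.66 in OFT-RV with 1 array left out and 0.94 with dim probe sets left out, and 0.27 to 0.41 in aSHF. Its difference between tissues was 0.19 to 0.29. Mature miRNAs called lower in OFT-RV were 1 to 4 with 1 array left out.

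With the replicate number as a replicate block the counts were 24 in OFT-RV, 14 in aSHF and 5 for the difference. Whether the numbers pair the samples is not stated. Same-numbered deviations correlated at 0.02 to 0.24 in OFT-RV and -0.09 to 0.67 in aSHF, too few values to decide it. Not every sample correlated best with its own number.

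Spearman's rho of change with position was 0.13 in OFT-RV and 0.0608 in aSHF, where r was near 0 or below, and without dim genes r was 0.0795 in OFT-RV. Differences near 0 turned sign: Mir666 in OFT-RV (-0.10 to 0.072 with 1 array left out, 0.0043 with array weights) and the differences between tissues of Mir341 (-0.0795 to 0.0961, 0.0565 with array weights) and Mir127 (-0.0956 to 0.12). The cause of these shifts was not tested.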
